A study of Mus musculus with 6 samples.

Results

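Genes that myeloid cells use to sense and answer danger signals were examined in liver endothelial cells of mice fed different amounts of iron. They are C5ar1, Fpr1, Tyrobp, Fcer1g, Hcst, Fermt3, Ncf1 and Cybb, 8 of 39179 genes in the table, and were chosen by name, in part for their higher CPM in the high_iron libraries. The diet difference of these 8 genes is therefore given as a description with no test.
RNA was sequenced from cells sorted from livers of male 129S6/SvEvTac wild-type mice at 7 weeks of age. The control_iron group had eaten a purified AIN-93G diet with 37 ppm iron as ferric citrate, and the high_iron group the same kind of diet with 10000 ppm carbonyl iron, in both cases for 4 weeks from the age of 3 weeks. Each group had 3 biological replicates. The labels do not state how many animals made up a replicate. The sort kept cells with CD31 and CD146 on their surface and removed cells with CD45, lineage markers, MHC class II or CD64, a gate meant to remove leukocytes.

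C5AR1 and FPR1 are G protein-coupled receptors that guide phagocytes toward the complement fragment C5a and toward bacterial or mitochondrial formyl peptides. TYROBP (DAP12), FCER1G (the common gamma chain of Fc receptors) and HCST (DAP10) are short membrane adaptors that carry the signal of receptors with no signalling tail of their own: the first pair through ITAM motifs that recruit the kinase SYK, HCST through a motif that recruits PI3-kinase. FERMT3 (kindlin-3) activates integrins in blood cells. CYBB (gp91phox) is the catalytic subunit of the phagocyte NADPH oxidase, and NCF1 (p47phox) its cytosolic organizer. In the liver most of these genes are known mainly from Kupffer cells and other leukocytes, while sinusoidal endothelium is known for high levels of the Fc receptor gene Fcgr2b.

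The unit of level is CPM, a gene's read count scaled by library size. Libraries held 12963510 to 21663543 reads in genes, so 3 reads, the limit that a count of 0 allows, equal 0.139 to 0.231 CPM; this limit covers counting error only. The endothelial label matched its markers: 11 endothelial genes summed to between 20560 and 22234 CPM per control_iron library and between 19285 and 20366 CPM per high_iron library. Every high_iron sum was below every control_iron sum. Mcam, which encodes the CD146 used in the sort, was at only 7.49 to 27.5 CPM. Ptprc, which encodes the CD45 used to remove cells, ranged from 0.604 to 2.68 CPM with control iron and from 4.13 to 7.60 CPM with high iron.

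In 7 of the 8 genes every high_iron library was above every control_iron library, and in the eighth, Fcer1g, the groups overlapped. Over all 12980 genes tested, 9.46% did not overlap with the high_iron libraries higher and 8.44% with them lower; since the genes were picked in part on this difference, nothing is read from the comparison. The mean in high_iron libraries was 2.87 to 12.1 times the control_iron mean in those 7 genes. Of the 8 genes, 5 reached 1 CPM in every library. Fpr1, Hcst and Ncf1 reached it in 0 of the 3 control_iron libraries, so they entered the set of tested genes through the high_iron libraries alone.

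**Figure D1:**
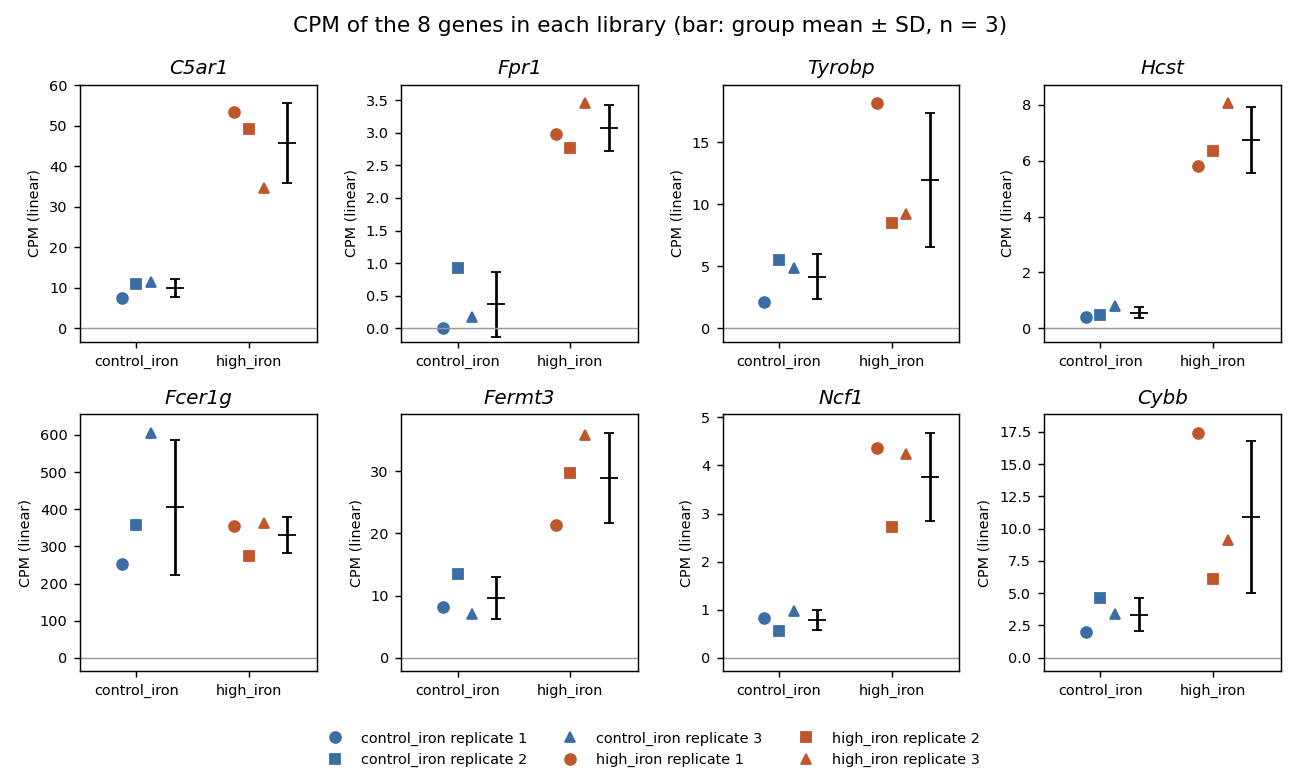
CPM of each gene (vertical axis, linear, own scale per panel) in the 3 control_iron (blue) and 3 high_iron (orange) libraries, with the symbol shape giving the replicate and the black bar the group mean ± SD. Orange points lie above blue points in every panel except that of Fcer1g, where the highest library is control_iron replicate 3 at 607 CPM.

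C5ar1 was well separated between the diets. Its level was 7.43, 10.96 and 11.4 CPM in control_iron replicates 1 to 3, and at 53.4, 49.1 and 34.6 CPM in high_iron replicates 1 to 3. Differences on the log2(CPM + 1) scale used below understate those of genes with few reads. The values of C5ar1 rest on 143 to 236 reads per control_iron library and 450 to 1041 reads per high_iron library. The means were 9.93 ± 2.17 and 45.7 ± 9.87 CPM (SD, n = 3 per group), a 4.61-fold difference, and the lowest high_iron library held 3.04 times the CPM of the highest control_iron library. The gene (ENSMUSG00000049130) occupies positions 16246743 to 16259540 of chromosome 7, minus strand, in GRCm38 (mm10). C5ar2, which encodes the other C5a receptor, had means of 85.2 ± 11.9 CPM (control_iron) and 66.0 ± 9.50 CPM (high_iron); it did not pass the test (limma log2 fold change -0.36 ± 0.16 SE, adjusted p = 0.41). Per base of gene length, C5ar1 was at 5.60% to 11.4% of C5ar2 in control_iron libraries and at 44.8% to 57.5% of it in high_iron libraries, with the lengths deposited in the table. With merged exon lengths of GENCODE M21, in which C5ar1 is 2570 instead of 4912 bases long, the same shares were 10.7% to 21.8% and 85.8% to 110.02%. Family relatives such as C5ar2 were picked for comparison after the values were seen.

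Fpr1 was among the lowest of the 8 genes. It had 0, 20 and 3 reads in control_iron replicates 1 to 3, that is 0, 0.929 and 0.171 CPM, and 58, 47 and 45 reads in high_iron replicates 1 to 3, that is 2.98, 2.77 and 3.46 CPM. The high_iron libraries were close to each other, while the control_iron mean was set almost wholly by replicate 2. The ratio of means was 8.37, but it was 35.9 without control_iron replicate 2 and 5.58 without control_iron replicate 1. Fpr1 (ENSMUSG00000045551) occupies positions 17876471 to 17883940 of chromosome 17, minus strand. Its relative Fpr2 did not exceed 1.03 CPM in any library and was not tested, and Fpr3, Fpr-rs3 and Fpr-rs4 had no read in any library.

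Tyrobp and Hcst are neighbours on chromosome 7. Tyrobp (ENSMUSG00000030579) runs from 30413760 to 30417585 on the plus strand and Hcst (ENSMUSG00000064109) from 30417712 to 30419854 on the minus strand, so that their 3′ ends face each other with 126 bases and no annotated gene between them. No exon base is shared between them in GENCODE M21. Tyrobp was at 2.13, 5.53 and 4.84 CPM in control_iron replicates 1 to 3 and at 18.2, 8.49 and 9.23 CPM in high_iron replicates 1 to 3. High_iron replicate 1 stood well above the other two, and without it the ratio of means was 2.13 instead of 2.87. Hcst was at 0.416, 0.464 and 0.797 CPM in control_iron replicates 1 to 3 and at 5.80, 6.37 and 8.07 CPM in high_iron replicates 1 to 3. This was the widest separation of the 8 genes: the lowest high_iron library held 7.27 times the CPM of the highest control_iron library. The Hcst means were 0.559 ± 0.208 and 6.75 ± 1.18 CPM (SD, n = 3), a 12.1-fold ratio resting on 8 to 14 reads in each control_iron library and 105 to 113 in each high_iron library. High_iron replicate 1, the highest library for Tyrobp, was the lowest of its group for Hcst.

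Fcer1g differed from the other 7 genes in both level and diet difference. It was at 253, 358 and 607 CPM in control_iron replicates 1 to 3 and at 354, 274 and 363 CPM in high_iron replicates 1 to 3. All 3 high_iron libraries lay within the range of the control_iron libraries, whose own spread was 2.40-fold. The means were 406 ± 182 and 330.1 ± 48.7 CPM (SD, n = 3), and the difference of mean log2(CPM + 1) of -0.21 turned to 0.12 when control_iron replicate 3 was left out. It had 4649 to 10653 reads per library, so counting error is small beside that spread. Fcer1g (ENSMUSG00000058715) occupies positions 171229572 to 171234365 of chromosome 1, minus strand. The 2 genes with the most CPM among the tested activating receptors that can pair with these adaptors were Fcgr3 and Fcgr4, Fc receptors for IgG that signal through FCER1G. Fcgr3 was at 11.2 ± 1.22 and 15.4 ± 2.35 CPM (adjusted p = 0.42 in limma) and Fcgr4 at 2.42 ± 0.822 and 5.87 ± 1.53 CPM (adjusted p = 0.15). Fcgr2b, the inhibitory IgG receptor that carries its own signalling motif, was at 2491 ± 506 and 2087 ± 208 CPM and did not pass either (adjusted p = 0.63).

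Promoter windows are shown for C5ar1 and Hcst, whose difference was the widest on the log2(CPM + 1) scale, and for Fcer1g, whose groups overlapped. Each runs from 250 bases before to 50 bases after the RefSeq transcript start, 5′ to 3′ on the gene's own strand (GRCm38.p6), and capitals mark AGGAA on either strand, the core that transcription factors of the ETS family bind. The windows are chr7:16259289-16259588 for C5ar1, chr7:30419805-30420104 for Hcst and chr1:171234300-171234599 for Fcer1g, all on the minus strand.
C5ar1: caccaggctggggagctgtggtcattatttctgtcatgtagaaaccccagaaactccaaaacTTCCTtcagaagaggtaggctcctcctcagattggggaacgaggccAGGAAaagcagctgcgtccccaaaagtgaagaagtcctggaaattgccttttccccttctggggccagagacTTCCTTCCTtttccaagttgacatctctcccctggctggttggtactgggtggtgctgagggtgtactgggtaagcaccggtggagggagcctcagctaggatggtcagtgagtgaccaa
Hcst: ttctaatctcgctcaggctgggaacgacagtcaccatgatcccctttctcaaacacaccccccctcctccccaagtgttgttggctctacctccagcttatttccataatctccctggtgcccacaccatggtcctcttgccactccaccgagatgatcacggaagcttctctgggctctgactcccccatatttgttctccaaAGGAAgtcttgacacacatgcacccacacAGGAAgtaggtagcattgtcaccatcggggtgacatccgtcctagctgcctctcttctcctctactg
Fcer1g: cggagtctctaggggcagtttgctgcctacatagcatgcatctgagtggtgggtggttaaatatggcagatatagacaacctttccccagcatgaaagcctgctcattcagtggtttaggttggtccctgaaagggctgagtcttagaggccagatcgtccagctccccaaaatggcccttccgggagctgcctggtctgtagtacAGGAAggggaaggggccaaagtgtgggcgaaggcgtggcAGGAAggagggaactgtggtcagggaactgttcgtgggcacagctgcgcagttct
AGGAA occurred 4 times in the C5ar1 window, 2 times each in those of Hcst and Fcer1g, and in 6 of the 7 windows found for the 8 genes. Tyrobp was not matched. The core is common, and 66.7% of 32851 RefSeq windows of this length held it. The longer letters GAGGAAGT, preferred by the myeloid ETS factor PU.1, occurred in 0 of the 7 windows and in 3.20% of all windows, and the C/EBP letters TTGCNNAA in 0 of the 7 and 10.8% of all. TGACNNNGC, the antioxidant response element bound by NRF2, occurred in the Hcst window alone, against 12.4% of all windows. All motifs were searched on both strands, and AGGAA lies within GAGGAAGT.

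Fermt3 was at 8.16, 13.4 and 7.12 CPM in control_iron replicates 1 to 3 and at 21.4, 29.8 and 35.8 CPM in high_iron replicates 1 to 3. The means were 9.57 ± 3.38 and 29.0 ± 7.27 CPM (SD, n = 3), a 3.03-fold difference. The high_iron library that was highest for Tyrobp was the lowest for Fermt3. Fermt3 (ENSMUSG00000024965) occupies positions 6998958 to 7019469 of chromosome 19, minus strand, where exons of Trpt1 on the opposite strand cover 1.54% of its exon length. Fermt2, which encodes the kindlin of most tissues, was far more abundant, at 435 ± 71.3 and 374 ± 37.0 CPM, and did not pass the test (log2 fold change -0.21 ± 0.16 SE, adjusted p = 0.61 in limma). Per base of length Fermt3 was at 2.15% to 4.12% of Fermt2 in control_iron and at 7.55% to 15.4% in high_iron libraries, with the deposited lengths. With GENCODE M21 lengths it was at 1.33% to 2.55% and 4.67% to 9.56%. Fermt1, the epithelial kindlin, had at most 3 reads in any library.

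Both oxidase genes were low in every library. Cybb was at 2.03, 4.597 and 3.42 CPM in control_iron replicates 1 to 3 and at 17.5, 6.13 and 9.15 CPM in high_iron replicates 1 to 3. Its groups came closest of the 7 separated genes, with the lowest high_iron library at 1.33 times the highest control_iron library, and high_iron replicate 1 at 2.85 times high_iron replicate 2. The ratio of Cybb means was 3.26, and 2.28 without high_iron replicate 1. Ncf1 was at 0.831, 0.557 and 0.968 CPM in control_iron replicates 1 to 3 and at 4.36, 2.71 and 4.23 CPM in high_iron replicates 1 to 3. Its means were 0.786 ± 0.209 and 3.77 ± 0.917 CPM (SD, n = 3), a 4.80-fold ratio from 12 to 17 reads in each control_iron library and 46 to 85 in each high_iron library. Cybb (ENSMUSG00000015340) occupies positions 9435252 to 9487771 of chromosome X and Ncf1 (ENSMUSG00000015950) positions 134220053 to 134229625 of chromosome 5, both on the minus strand. Exons of Gtf2ird2 on the opposite strand overlap 11.1% of the exon length of Ncf1; Gtf2ird2 was at 11.4 to 19.3 CPM, and the library kit did not mark strand, so a share of Ncf1 reads could not be assigned with certainty. None of the 8 genes had a near-identical copy among the annotated transcripts.

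Per base of gene length the order was led by Fcer1g in both groups, at 510 ± 229 RPKM in control_iron and 415 ± 61.3 RPKM in high_iron libraries (SD, n = 3). Tyrobp followed at 7.45 ± 3.21 and 21.4 ± 9.64 RPKM. In control_iron libraries the level then fell through Fermt3 (3.72 ± 1.31 RPKM), C5ar1 (2.02 ± 0.442), Hcst (1.29 ± 0.480), Cybb (0.578 ± 0.222), Fpr1 (0.277 ± 0.374) and Ncf1 (0.222 ± 0.0592). Neighbours in that order overlapped between libraries except Fcer1g with Tyrobp, Fermt3 with C5ar1 and Hcst with Cybb. In high_iron libraries Hcst stood in the third place with the deposited lengths, at 15.6 ± 2.73 RPKM, and its libraries overlapped with those of Tyrobp and Fermt3. Ncf1 remained last at 1.07 ± 0.260 RPKM, and its libraries overlapped with those of Cybb. These orders and overlaps depend on the length used. The deposited lengths of C5ar1, Fermt3 and Hcst are 4912, 2572 and 433 bases, against 2570, 5784 and 722 bases of merged exons in GENCODE M21. With the latter, C5ar1 moved above Fermt3 in control_iron and above Hcst and Fermt3 in high_iron libraries. Hcst was then at 8.03 to 11.2 CPM per kilobase in high_iron libraries. It overlapped with neither Tyrobp (12.7 to 27.2) nor Fermt3 (3.69 to 6.19).

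Within groups the 8 genes did not move as one. Cybb and Tyrobp followed each other most closely, with a correlation of r = 0.94 between their deviations from the group means over the 6 libraries, and both were the highest of their group in high_iron replicate 1 and the lowest of theirs in control_iron replicate 1. Next came C5ar1 with Tyrobp (r = 0.77) and Fermt3 with Fpr1 (r = 0.76). Fermt3 and Fpr1 were both high in control_iron replicate 2 and high_iron replicate 3. The pairs were not separate, since Fpr1 also had r = 0.52 with Tyrobp and 0.51 with Cybb. Fermt3 and Ncf1 were the most opposed pair (r = -0.51). Of the 28 pairs, 18 had a positive correlation, with a median of 0.26. These correlations describe 6 libraries that share depth and cell make-up, with 4 degrees of freedom.

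**Figure D2:**
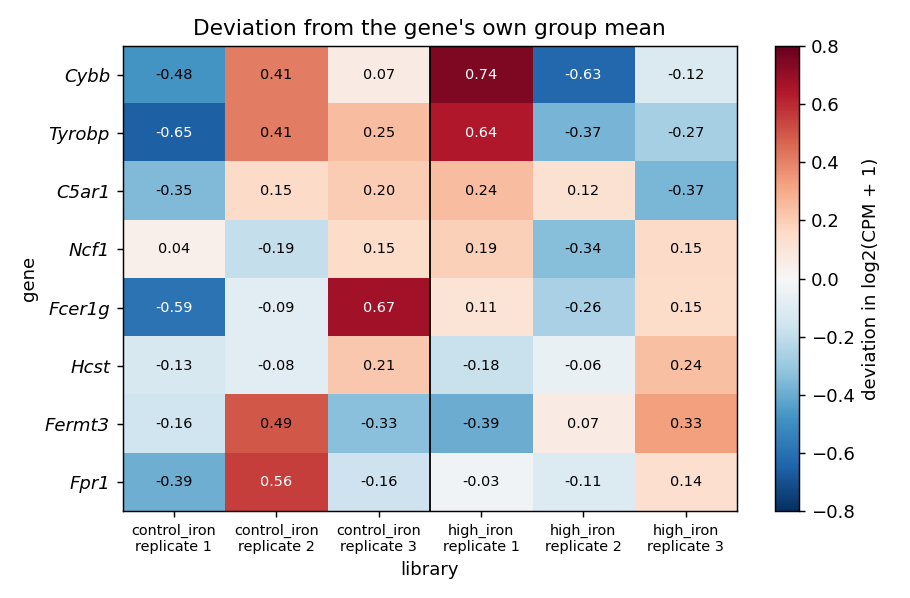
Deviation of each library from the mean of its own group in log2(CPM + 1) (colour and printed value), for the 8 genes in rows and the 6 libraries in columns. Cybb and Tyrobp share their highest deviation, 0.74 and 0.64, in high_iron replicate 1, where Fermt3 is at -0.39.

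Markers of Kupffer cells and macrophages were higher in the same libraries. Of 16 such genes 15 were tested, the log2 fold change was above 0 in all 15, its median was 1.40 (all genes tested: -0.003), 12 did not overlap between groups (9.46% of all genes tested, with high_iron higher), and Csf1r, Marco and Clec4f passed the limma test (0.832% of all genes tested, higher). EdgeR called 2 of the 15, without Clec4f, and DESeq2 10. Their summed level was 79.2 to 184 CPM in control_iron and 266 to 534 CPM in high_iron libraries, highest in high_iron replicate 1. Each of the 16 had reads in at least 1 library, and Fcgr1, which encodes the CD64 used in the sort, was at 0.208 to 0.511 and 0.766 to 2.16 CPM. Genes of the proteins gated out (Ptprc, Fcgr1, Cd74 and MHC class II genes) summed to 44.4 to 81.6 and 181 to 569 CPM, and 3 of 5 tested, H2-Aa, H2-Ab1 and Cd74, passed higher. Neutrophil markers stayed low, with 13 genes summing to 1.07 to 5.75 and 2.71 to 13.2 CPM and 8 of them, Ly6g, Elane and Mmp8 among them, under 1 CPM in every library. NK cell markers summed to 1.03 to 2.70 and 2.59 to 4.83 CPM, and all 6 mast cell and basophil genes were under 1 CPM throughout. T cell markers summed to 5.77 to 9.57 and 12.3 to 14.9 CPM, most of it from Lck, and B cell markers to 2.97 to 6.26 and 10.4 to 16.6 CPM, with Ighm passing in limma; edgeR called 0 B cell markers and DESeq2 2. Sums for monocyte (19.8 to 24.7 and 18.7 to 40.8 CPM), dendritic cell (294 to 356 and 310.2 to 342 CPM, nearly all from Zbtb46 and Clec9a) and platelet markers (21.2 to 33.1 and 28.03 to 33.4 CPM) overlapped between groups, as did those of hepatocyte (308 to 1254 and 656 to 1268 CPM) and stellate cell markers (131 to 1022 and 213 to 942 CPM). Of the dendritic cell genes, Flt3, Cd209a and Itgax were under 1 CPM in every library, so that sum rests on a few genes of its list. The part of all these cell types in the values of the 8 genes was not tested. In sorted bulk samples a change in the number of cells of a type and a change in RNA per cell cannot be told apart.

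Set against the summed Kupffer cell and macrophage markers of the same library, the groups overlapped for C5ar1, Tyrobp, Fermt3, Ncf1 and Cybb. Tyrobp, for example, equalled 2.69% to 4.98% of the marker sum in control_iron and 2.52% to 3.40% in high_iron libraries, and Cybb 2.49% to 3.52% and 2.30% to 3.27%. Hcst did not overlap on this scale, at 0.252% to 0.821% in control_iron and 1.09% to 2.39% in high_iron libraries. Fpr1 was at 0 to 0.504% and 0.558% to 1.04%, with 20 reads behind its highest control_iron value. Fcer1g went the other way, from 194% to 624% down to 66.2% to 103%. On this scale 0.154% of the genes tested did not overlap with high_iron higher, and 82.4% with high_iron lower. The genes were picked in part for their rise, and Hcst and Fpr1 reached 1 CPM in no control_iron library. Nothing is therefore read from the comparison with these shares. The 7 genes other than Fcer1g together equalled 25.3% ± 5.0 of the marker sum in control_iron and 30.4% ± 8.36 in high_iron libraries (SD, n = 3).

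**Figure D3:**
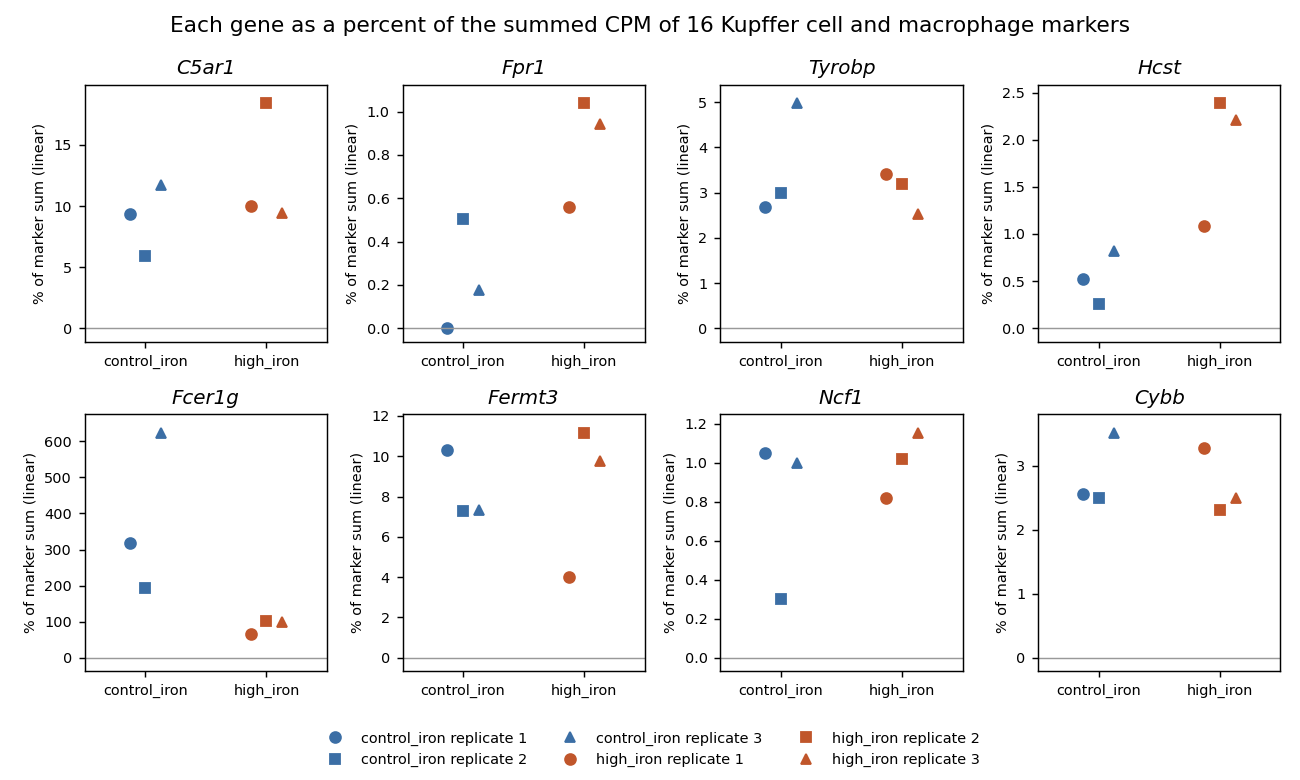
Each gene as a percent of the summed CPM of 16 Kupffer cell and macrophage markers in the same library (vertical axis, linear, own scale per panel), for 3 control_iron (blue) and 3 high_iron (orange) libraries, with the symbol shape giving the replicate. Blue and orange points overlap for C5ar1, Tyrobp, Fermt3, Ncf1 and Cybb, orange points are higher for Hcst and Fpr1, and lower for Fcer1g.

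Other genes of the same machinery were examined in 8 lists, whose 134 genes had 83 tested. Of these 83, 4 rose on the high-iron diet (4.82%) and 0 fell, by limma with Benjamini-Hochberg adjustment. In limma 38 of the 83 had an unadjusted p under 0.05, with 3 of them lower and the rest higher. EdgeR and DESeq2 called 0 lower. In either direction edgeR called 6 and DESeq2 20, where edgeR called 0.924% and DESeq2 3.27% of all genes tested. At an unadjusted p under 0.05 in limma, 7.3% of all genes tested were higher and 4.82% lower. Over all genes tested 1.02% passed, 0.832% higher and 0.193% lower. The 4 were Hvcn1, Fgr, Hc and Itgal, and each lost its call when high_iron replicate 3 was left out (adjusted p = 0.20, 0.21, 0.23 and 0.18). Without control_iron replicate 3 none of them passed either. Libraries of the groups did not overlap with high_iron higher for 36 of the 83, and with high_iron lower for 2, against 9.46% and 8.44% of all genes tested. Of the 83 genes, 10 reached 1 CPM in no control_iron library and entered the set of tested genes through the high_iron libraries alone, which limits these shares. In a split made after the values were seen, the 46 listed genes with a mean under 20 CPM had a median log2 fold change of 0.93, and the 37 more abundant ones of 0.07. Over all genes tested the same medians were -0.02 and 0.01. High_iron libraries were higher with no overlap in 29 of the 46 (63.0%) and 7 of the 37 (18.9%). Over all genes tested the same shares were 8.86% and 9.95%. The cause was not tested.

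Of 9 tested subunits and partners of NADPH oxidases, Hvcn1 rose. It encodes the proton channel that balances the charge moved by the oxidase, and was at 55.5, 67.8 and 39.5 CPM in control_iron replicates 1 to 3 and at 97.8, 144 and 126 CPM in high_iron replicates 1 to 3. Its log2 fold change was 1.18 ± 0.21 SE (limma, adjusted p = 0.038), and the call was lost when control_iron replicate 3 or any 1 of the high_iron libraries was left out. The list's median log2 fold change was 0.29, with 4 genes higher and 0 lower at an unadjusted p under 0.05 in limma. Rac2, the GTPase of the phagocyte oxidase, was at 3.06 ± 1.94 and 11.2 ± 3.17 CPM (adjusted p = 0.061), whereas Cyba, which encodes p22phox, the membrane partner of CYBB, was at 125 ± 24.6 and 144 ± 21.6 CPM (adjusted p = 0.66). Nox4, the oxidase known from endothelium, was at 0.921 ± 1.04 and 1.099 ± 0.420 CPM (adjusted p = 0.81).

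Receptors that hand their signal to TYROBP, HCST or FCER1G were mostly at the edge of detection. Of 22 listed, 13 stayed under 1 CPM in every library, among them Trem1, Trem2, Clec5a and Klrk1, the NKG2D gene whose product signals through HCST; Klrk1 did not exceed 0.825 CPM. Of 6 tested, 0 passed in limma, 4 were higher at an unadjusted p under 0.05, and edgeR called 1 and DESeq2 3. The median log2 fold change of these 6 was 0.99. Of 10 tested inhibitory receptors and phosphatases, 0 passed in limma, with 7 higher at an unadjusted p under 0.05, 1 called by edgeR and 5 by DESeq2, and a median of 1.07. Sirpa, the receptor for CD47 and the second of them by CPM after Fcgr2b, was at 179 ± 63.8 and 231 ± 15.5 CPM (adjusted p = 0.47).

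Among 22 tested kinases and scaffolds downstream of ITAM motifs, Fgr rose. This SRC-family kinase of myeloid cells was at 0.727, 0.371 and 0.171 CPM in control_iron replicates 1 to 3 and at 3.95, 2.06 and 3.23 CPM in high_iron replicates 1 to 3 (log2 fold change 1.51 ± 0.28 SE, adjusted p = 0.040 in limma). Fgr reached 1 CPM in no control_iron library, so it entered the set of tested genes through the high_iron libraries alone, which limits this call. The call held without control_iron replicate 1 and with no other library left out, and edgeR gave an adjusted p of 0.050, just past the threshold. EdgeR called 1 gene of this list, which was not Fgr. The list's median was 0.12, with 7 genes higher and 1 lower at an unadjusted p under 0.05 in limma. Syk, the kinase that binds ITAM motifs, was at 1.58 ± 0.868 and 3.78 ± 0.880 CPM (SD, n = 3) and did not pass (adjusted p = 0.23 in limma).

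Of 8 tested chemoattractant receptors and G protein genes 0 passed in limma, with 1 higher and 1 lower at an unadjusted p under 0.05 and 0 called by edgeR or DESeq2; the median was 0.09. Gnai2, the inhibitory G protein subunit that such receptors use, was at 1494 ± 185 and 1455 ± 106 CPM, and Arrb2, which encodes an arrestin, at 310.3 ± 30.3 and 327 ± 37.9 CPM (adjusted p = 0.94 and 0.86). Of 4 tested genes for ligands, Hc rose. Hc encodes complement C5, the precursor of the C5AR1 ligand, and was at 74.1, 94.1 and 78.4 CPM in control_iron replicates 1 to 3 and at 123, 197 and 186 CPM in high_iron replicates 1 to 3. Its log2 fold change was 1.00 ± 0.19 SE (adjusted p = 0.044 in limma), and the call held in 1 of the 6 fits with a library left out, that without high_iron replicate 1.

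Of 14 tested integrin and integrin-activator genes, Itgal rose. It encodes the alpha chain of LFA-1, an integrin that kindlin-3 activates, and was at 0.987, 1.07 and 1.03 CPM in control_iron replicates 1 to 3 and at 9.03, 3.42 and 5.84 CPM in high_iron replicates 1 to 3 (log2 fold change 1.73 ± 0.30 SE, adjusted p = 0.035 in limma). It failed the threshold without control_iron replicates 2 or 3 and without high_iron replicates 1 or 3. Itgb2, its beta chain, was at 2.06 ± 1.30 and 7.18 ± 2.14 CPM (adjusted p = 0.11). This list had a median of 0.33, with 5 genes higher and 0 lower at an unadjusted p under 0.05 in limma. Of 10 tested transcription factors of myeloid cells 0 passed in limma, with 6 higher and 1 lower at an unadjusted p under 0.05, 0 called by edgeR and 2 by DESeq2, and a median of 0.62. Maf and Irf8 had the most CPM of them, with 1958 ± 790 and 1210 ± 200 CPM (adjusted p = 0.38) and 92.6 ± 21.1 and 133 ± 28.4 CPM (adjusted p = 0.33). Maf was not typical of the list: the log2 fold change was above 0 in 9 of the 10 tested factors, all except Maf.

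**Figure D4:**
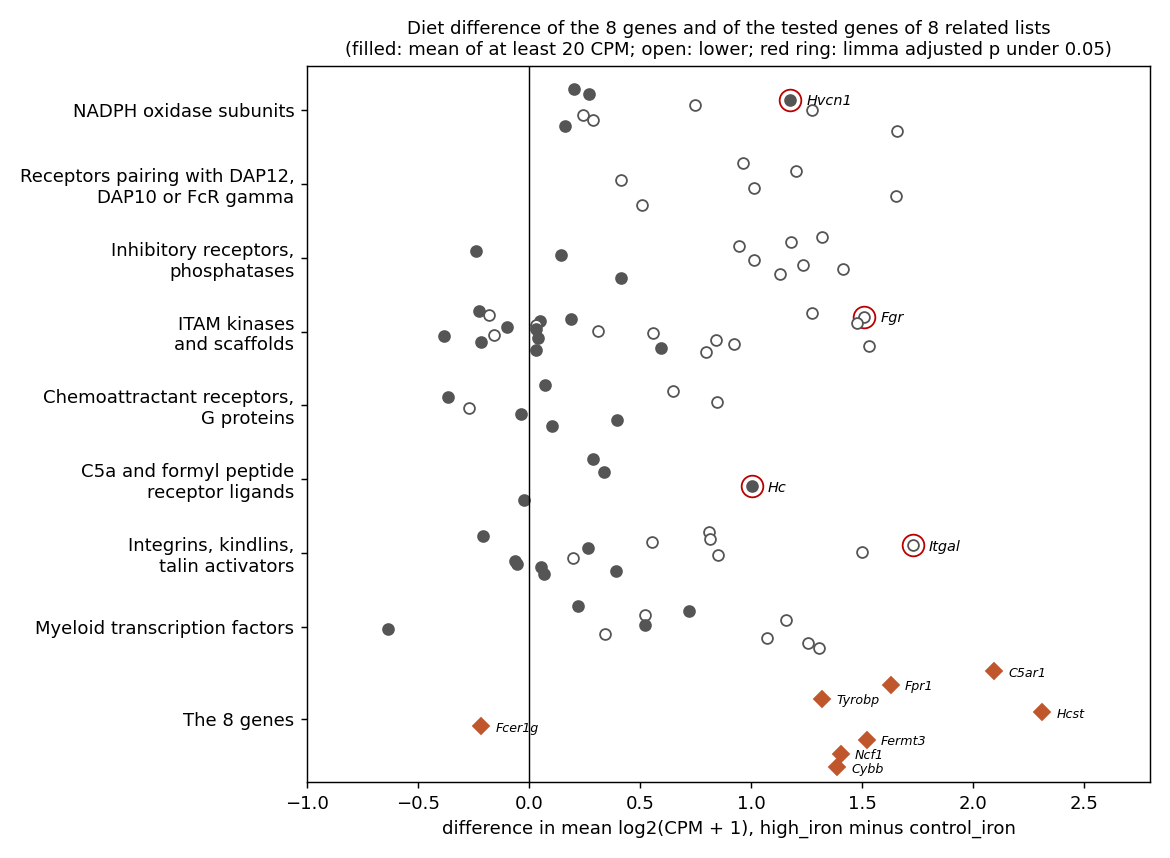
Difference of mean log2(CPM + 1), high_iron minus control_iron (horizontal axis), for the 83 tested genes of 8 related lists (circles, filled at a mean of at least 20 CPM, ringed in red where limma's adjusted p was under 0.05) and for the 8 genes (diamonds, not tested). Open circles lie mostly to the right of 0 and filled circles around it, and 7 of the 8 diamonds lie between 1.32 and 2.31.

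The 5 genes whose pattern over the 6 libraries was most like the mean standardized level of the 8 genes, out of 9473 with a mean of at least 5 CPM, were Htatip2 (r = 0.992), Sqstm1 (0.988), Csf1r (0.988), Plekho2 (0.987) and Blvrb (0.984). The diet difference is part of these correlations, which are given with no test. With the group means removed, the same genes had r of 0.93, 0.93, 0.89, 0.89 and 0.88. Sqstm1, which encodes the autophagy receptor p62, had means of 212 ± 42.2 CPM with control iron and 376 ± 29.7 CPM with high iron, and Blvrb, a biliverdin reductase, at 205 ± 45.2 and 400.1 ± 14.3 CPM. Csf1r, the receptor for macrophage growth factor, was at 4.32 ± 1.81 and 24.3 ± 7.19 CPM.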

How the data were processed

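RNA of sorted liver endothelial cells was sequenced in 6 libraries. Per the submitters' processing notes STAR, HTSeq, edgeR and mm10 were used, with no versions or roles; the annotation used is not stated there. Per the labels' protocols, libraries came from a low-input cDNA kit. The authors deposited a normalized signal named CPM, reads over a scaled library size; all of its 114253 values above 0 (100%) were whole multiples of 1 read within 0.001 read, so reads were recovered. CPM recomputed from those reads with edgeR's TMM factors equalled the deposited CPM to a relative difference of at most 5.0e-15. The deposited RPKM values equal the deposited CPM per kilobase of the deposited gene length, another column of the authors.

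Genes with at least 1 CPM in at least 3 libraries (12980) were tested with limma 3.58.1 (R 4.3.3). Values were log2(CPM + 1), the model held the diet group only, and the fit used an intensity trend, two-sided p-values and Benjamini-Hochberg adjustment over all of them at 0.05. Recovered reads were tested with edgeR 4.0.16 and DESeq2 1.42.0 as alternatives; edgeR called 120 genes and DESeq2 424. Positions come from GENCODE M21 (GRCm38), promoter windows from RefSeq (7 of 8 genes matched), and copies were searched with BLAST+ 2.17.0 at 95% identity over 50% of the transcript. Chi-square over degrees of freedom between replicates was 17.3 to 83.1, above sampling noise. P-values set the group difference against the spread between these samples, which the series calls biological replicates.

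The members and lists were chosen with earlier results of these data known. Named genes were the 8 members; from each pathway list the genes that passed (up to 4) or else the 2 most abundant; and the 5 genes most like the members in pattern, and a few more picked after their values were seen (family relatives, Rac2, Cyba, Syk, Klrk1, Itgb2). Of the listed genes, 4 were matched by identifier and 1, Lilrb4a, was not matched.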

Additional observations from a re-analysis of the deposited data

How the results depend on the processing

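For all genes, 133 calls became 424 with DESeq2, 34 with no filter on low values and 402 with the replicate number as a block; with 1 library left out they ran from 27 (without high_iron replicate 3) to 183 (without control_iron replicate 1). Calls in the lists, in the order NADPH oxidase, adaptor-linked receptors, inhibitory receptors, ITAM kinases, integrins and transcription factors (1, 0, 0, 1, 1 and 0), became 3, 3, 5, 4, 2 and 2 with DESeq2 and 3, 3, 4, 4, 3 and 4 with the replicate block. EdgeR called 1 gene each among adaptor-linked and inhibitory receptors. With no filter the NADPH oxidase, ITAM kinase, ligand and integrin lists had 0, at a minimum of 5 CPM the ITAM kinase and integrin lists had 0, and with a pseudocount of 0.1 the ITAM kinase list had 0. With 1 library left out, calls ran from 0 to 2 for NADPH oxidase and inhibitory receptors and from 0 to 1 for adaptor-linked receptors, ITAM kinases, ligands and integrins. The cause was not tested, except that other filters change which genes are tested. No pairing by replicate number is stated, and correlations of deviations did not settle whether there was one. Same-numbered libraries correlated at 0.13, 0.32 and 0.06, and differently numbered libraries of the 2 groups at -0.39 to 0.20. Control_iron replicate 3 correlated best with high_iron replicate 1 (0.20).

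Of the 8 genes, Fcer1g changed sign without control_iron replicate 3. The other 7 did not overlap between groups, so leaving out a library or changing the pseudocount could not change their sign. Nothing is therefore read from their difference staying positive. With a pseudocount of 0.1 the log2 differences of Fpr1, Hcst and Ncf1 were 3.38, 3.41 and 2.13, against 1.63, 2.31 and 1.40 with a pseudocount of 1. Depth limits Fpr1, Hcst and Ncf1 most, with at most 20 reads in any control_iron library. With a minimum of 5 CPM in 3 libraries, Fpr1 and Ncf1 were not tested.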
